A study of Mus musculus with 16 samples.

Results

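The genes described here are the Wnt ligands, the Frizzled receptors and 3 families of secreted modulators, taken by name from the count table of a study of mouse dorsal root ganglia. Symbols made of Wnt, Fzd, Sfrp, Dkk or Rspo and a member number gave 41 of the 24421 symbols in the table: 19 Wnt ligands, 10 Frizzled receptors, 4 secreted Frizzled-related proteins, 4 Dickkopf proteins and 4 R-spondins. Each of the 41 had a read in at least 1 library, and 34 passed the filter on low counts. Frzb, a relative of the Sfrp genes, falls outside this naming and is treated with the other genes of the pathway.

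The study sequenced polyadenylated RNA from the lumbar dorsal root ganglia of C57BL/6 embryos at embryonic day 13.5; these ganglia hold the cell bodies of the neurons that sense touch, pain and position. KO_alpha3 stands for 4 libraries lacking importin α3 (the labels write the genotype as -/-), and WT_alpha3 for the 4 wild types labelled with that line. KO_beta stands for 4 libraries with a knockout of the importin β1 3′UTR, the untranslated end of its transcript, and WT_beta for the 4 wild types labelled with that line. Libraries carry the number in their title, and the submitters used the 8 wild types for both projects because of a bias by sex.

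The 4 groups shared strain, stage and tissue, and none was treated. Y-linked genes were read in all WT_alpha3 and KO_beta libraries and in KO_alpha3 50 and 75 (summed level at least 104 CPM), and were at or near 0 in WT_beta and in KO_alpha3 42 and 81, so sex cannot be told apart from line among the wild types, nor from genotype within the beta line. The labels name no Cre, driver, clone or litter and do not say that each library came from its own embryo, so p-values measure the spread between these libraries, which may in part be technical. Importins carry cargo between the cytoplasm and the nucleus.

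Wnt proteins are secreted lipid-modified ligands that bind Frizzled receptors together with the coreceptors Lrp5 or Lrp6, which stabilises β-catenin and switches on targets of the Tcf and Lef factors, or with receptors such as Ror2, which act on cell polarity without β-catenin. Sfrp proteins bind Wnts outside the cell, Dickkopf proteins occupy the coreceptors, and R-spondins bind Lgr receptors and keep Frizzled at the membrane by removing the ligases Znrf3 and Rnf43. In the embryo Wnt signals from the dorsal neural tube act on neural crest, the source of these ganglia, and later Wnts act on the growth and branching of sensory axons.

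Library totals ran from 19682595 to 26873361 reads. Kpna4, which encodes importin α3, had 0.870 ± 0.241 CPM in KO_alpha3 against 75.3 ± 5.59 CPM in WT_alpha3 (mean ± SD, n = 4 each; CPM is the read count scaled to a common library size). The deleted stretch of importin β1 lies in an untranslated region whose position the labels do not give, so its count over the whole gene checks no label. The 12 sensory neuron markers in the table summed to between 2782 and 6806 CPM across the 16 libraries. Globins differed strongly among libraries of one labelled stage: log2 of the ratio of Hbb-bh1 to Hbb-y reads ran from -7.00 in KO_beta 411 to -3.71 in KO_alpha3 81. Hbb-bh1 is switched off before Hbb-y as embryonic red cells mature, so a higher ratio is read here as a less mature library; it is measured in blood, not in the ganglion. The 5 highest ratios were those of WT_beta 399, KO_alpha3 42, WT_alpha3 45, WT_alpha3 79 and KO_alpha3 81. Within KO_alpha3 the libraries with Y-linked reads near 0, 42 and 81, had ratios of -5.10 and -3.71. Those with Y-linked reads, 50 and 75, had -6.81 and -6.03, so sex and ratio cannot be told apart within KO_alpha3. Group means were -5.63 ± 1.40 in WT_alpha3, -5.41 ± 1.33 in KO_alpha3, -6.18 ± 0.76 in WT_beta and -6.47 ± 0.39 in KO_beta (SD, n = 4 each). An adult globin ratio, log2 of Hbb-y over adult beta globin reads, should also be higher in a less mature library. In the alpha3 line it was 8.69 to 12.24 in the 4 libraries of high ratio and 5.95 to 7.89 in the others. In the beta line it ran the other way, from 7.28 in WT_beta 399, of the highest ratio there, to 8.93 in KO_beta 411, of the lowest. The 2 readings of maturity therefore differed in that line.

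Levels of different genes were compared as CPM per kilobase of annotated exon, averaged over the 16 libraries; how evenly reads cover a transcript is not given in the sources used here. The inhibitors Sfrp5 and Sfrp1 and the receptor Fzd2 stood highest. Sfrp5 was at 69.5 ± 16.3 CPM per kilobase (SD, n = 16), Sfrp1 at 28.3 ± 5.11 and Fzd2 at 27.7 ± 3.71. Fzd7 followed at 14.5 ± 2.24 and Fzd1 at 10.1 ± 1.43 CPM per kilobase, with Sfrp2 at 8.84 ± 4.04, Fzd8 at 7.67 ± 2.22 and Fzd3 at 6.68 ± 0.722. Sfrp1 and Fzd2 did not differ beyond their spread, and neither did Sfrp2, Fzd8 and Fzd3 among themselves.

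The ligands lay lower. Wnt6, a ligand known from surface ectoderm, was the highest of the 19, with a mean of 5.38 and a range of 2.80 to 7.50 CPM per kilobase over the 16 libraries. Wnt9a, known from joint formation, followed with a mean of 4.43 and a range of 2.55 to 5.86, and Wnt4, known from kidney, lay between 1.36 and 4.76. These 3 ranges overlapped. The highest Dickkopf genes, Dkk2 and Dkk3, lay at 4.22 ± 0.975 and 4.16 ± 1.26 CPM per kilobase. Of the R-spondins, Rspo2 stood at 1.42, Rspo1 at 1.28, Rspo4 at 1.27 and Rspo3 at 0.855 CPM per kilobase.

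**Figure D1:**
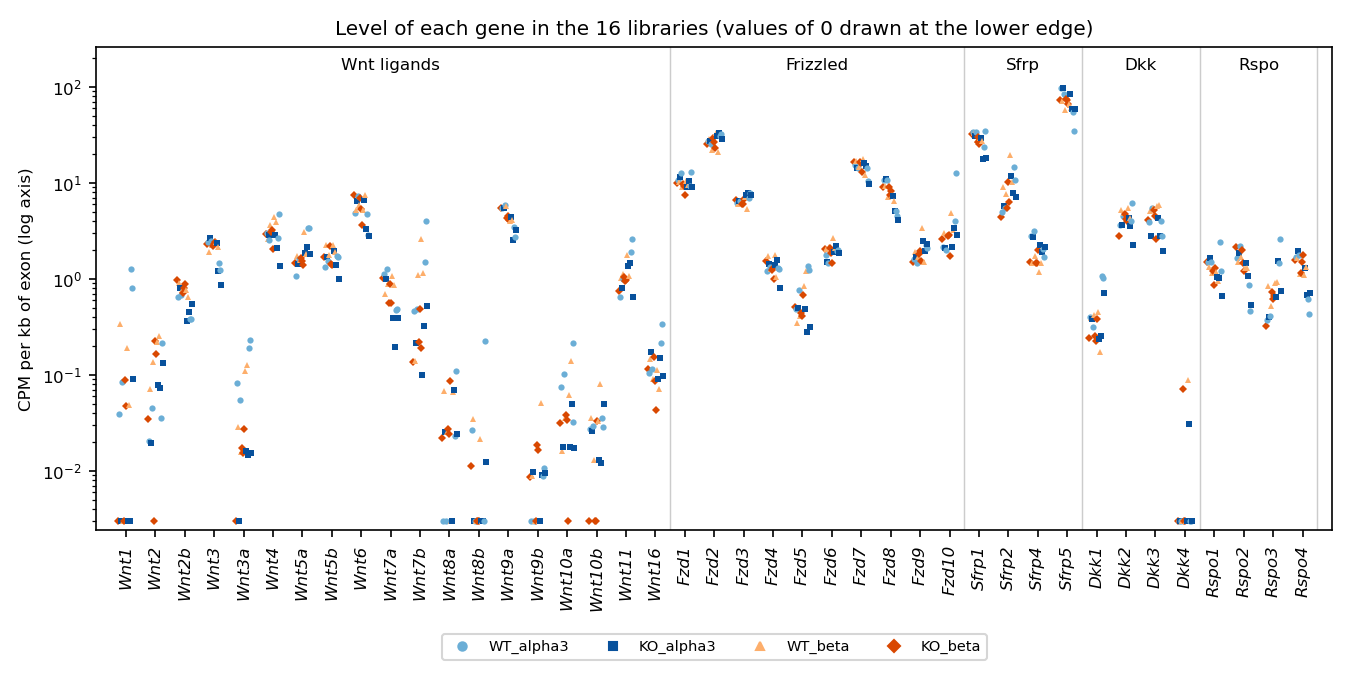
Level of each of the 41 genes as CPM per kilobase of exon on a log axis, 1 point per library, with the 4 groups in different colours and symbols and values of 0 drawn at the lower edge. Sfrp5, Sfrp1 and Fzd2 stand highest, the Wnt ligands lie below 10, and Dkk4 is at 0 in most libraries.

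Of the 41 genes, 7 had too few reads to test. Wnt3a had 61 reads over the 16 libraries together, Wnt10a 50, Wnt10b 34, Wnt8b 25, Wnt8a 24, Wnt9b 17 and Dkk4 6. Wnt3a and Wnt1 are ligands of the dorsal midline of the neural tube. Wnt1 passed the filter with 168 reads in all, of which 75 were in 1 library.

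The first comparison asked whether each gene followed the globin ratio across the 16 libraries, with the group as a term in the fit. A slope is the log2 change in level for each unit of the log2 ratio, given with its SE; a gene passed at a Benjamini-Hochberg adjusted p under 0.05 in edgeR's quasi-likelihood test over 15801 genes. Of the 34 tested genes 17 passed, or 50.0%, against 47.3% of all genes tested, so the number that passed was near that of any set of genes. Higher levels at a higher ratio were called for 6 of the 34 and lower levels for 11, beside 24.9% higher and 22.4% lower among all genes. The median slope was -0.02 for the 34 genes and 0.02 for all genes, and the median size of a slope without its sign was 0.28 against 0.12. By class this size was 0.13 for Fzd, 0.18 for Dkk, 0.22 for Sfrp, 0.31 for Wnt and 0.53 for Rspo genes. The genes compared were not matched for level or SE.

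Among the ligands, 5 of 13 tested fell and 3 rose as the ratio rose. Wnt9a lay at 11.5, 18.3, 19.5 and 9.04 CPM in WT_alpha3 45, 54, 55 and 79, and at 8.48, 18.3, 14.6 and 10.7 CPM in KO_alpha3 42, 50, 75 and 81. It was at 13.7, 13.3, 18.1 and 19.0 CPM in WT_beta 399, 401, 410 and 415, and at 13.8, 15.1, 14.3 and 18.2 CPM in KO_beta 398, 402, 406 and 411. The 4 libraries of the highest ratio held the 4 lowest levels of Wnt9a, while the fifth, WT_beta 399, lay among the other 11. Its slope was -0.31 ± 0.05 (edgeR adjusted p = 0.000259). In GENCODE M21 (GRCm38) Wnt9a lies at chr11:59306928-59333552, and of the other genes with slopes described below Wnt3 lies at chr11:103774150-103817957, Sfrp5 at chr19:42197971-42202252 and Rspo2 at chr15:43020794-43170826.

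Wnt3, a ligand that signals through β-catenin, showed a like pattern in the alpha3 line. The values were 4.52, 7.42, 7.58 and 3.79 CPM in WT_alpha3 45, 54, 55 and 79, and 3.75, 8.28, 7.32 and 2.66 CPM in KO_alpha3 42, 50, 75 and 81. In WT_beta 399, 401, 410 and 415 they were 6.65, 7.52, 5.86 and 6.98 CPM, and in KO_beta 398, 402, 406 and 411 they were 7.40, 7.04, 6.77 and 7.15 CPM. The 4 alpha3-line libraries of high ratio lay below the other 12. Wnt3 fell by 0.36 ± 0.07 on the log2 scale per unit (edgeR adjusted p = 0.00129), but its slope within the beta line was 0.07 ± 0.11.

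The other ligands that fell were Wnt7a, with a slope of -0.40 ± 0.13 (edgeR adjusted p = 0.0166), Wnt6 with -0.30 ± 0.10 (adjusted p = 0.0238) and Wnt2b with -0.21 ± 0.08 (adjusted p = 0.0370). In the 16 fits that left out 1 library, the pass was lost in 7 for Wnt2b, 4 for Wnt6 and 1 for Wnt7a. Wnt7a was low throughout, from 0.612 CPM in KO_alpha3 42 to 3.99 CPM in WT_alpha3 55. Wnt6 ran from 6.13 CPM in KO_alpha3 81 to 16.4 CPM in WT_beta 399, a library of high ratio, so that the high and low ends of the ratio overlapped. Within the beta line the slope of Wnt6 was 0.02 ± 0.20.

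Wnt7b, Wnt2 and Wnt5a rose with the ratio. Wnt7b, a ligand of the neural tube and of epidermis, was at 7.34, 2.26, 2.38 and 19.8 CPM in WT_alpha3 45, 54, 55 and 79, and at 1.59, 1.06, 0.485 and 2.53 CPM in KO_alpha3 42, 50, 75 and 81. It was at 5.61, 12.8, 0.678 and 5.40 CPM in WT_beta 399, 401, 410 and 415, and at 0.935, 2.40, 1.09 and 0.661 CPM in KO_beta 398, 402, 406 and 411. The 5 highest values were those of wild types, and 2 of these, WT_beta 401 and 415, were not among the libraries of high ratio. The slope was 0.87 ± 0.23 (edgeR adjusted p = 0.00695). Without WT_alpha3 79 it was 0.70, and Wnt7b no longer passed.

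Wnt5a, a ligand that acts mostly without β-catenin, was at 26.7, 8.48, 12.7 and 26.7 CPM in WT_alpha3 45, 54, 55 and 79 and at 14.1, 23.8, 13.4 and 12.2 CPM in WT_beta 399, 401, 410 and 415. The knockouts spanned less, from 11.2 to 16.8 CPM in KO_alpha3 and from 11.0 to 12.9 CPM in KO_beta. WT_alpha3 45 and 79 and WT_beta 401 thus stood above all other libraries. Its slope was 0.32 ± 0.10 (edgeR adjusted p = 0.0161). Wnt2 had a slope of 0.86 ± 0.28 (adjusted p = 0.0196) but never exceeded 15 reads or 0.580 CPM in a library.

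Wnt1, known from neural crest and the dorsal midline, had a slope of 1.17 ± 0.46 that missed the threshold (edgeR adjusted p = 0.0501). It was at 3.03 CPM in WT_alpha3 45 and 1.89 CPM in WT_alpha3 79, at or below 0.797 CPM in the other 14 libraries, and without a read in 6. Wnt11, a ligand of cell movements, missed it too, at 0.31 ± 0.14 (adjusted p = 0.0883). Wnt4, Wnt5b and Wnt16 had slopes of -0.00 ± 0.10, -0.07 ± 0.08 and 0.12 ± 0.17, none of which passed.

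**Figure D2:**
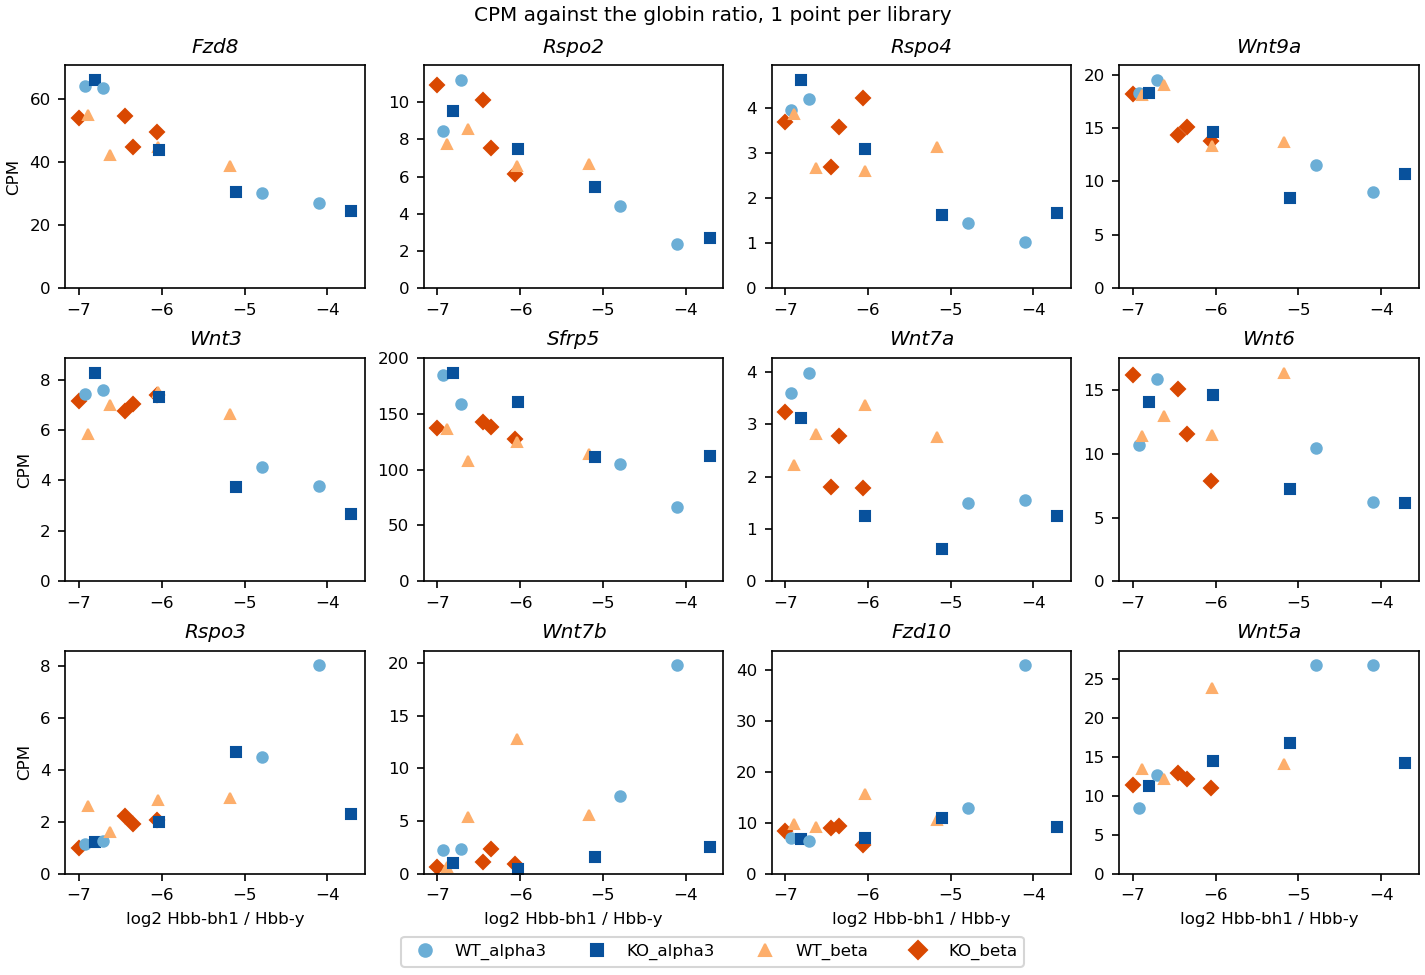
CPM of 12 genes against log2 of the Hbb-bh1 to Hbb-y ratio, 1 point per library with the 4 groups in different colours and symbols, each vertical axis starting at 0. Fzd8 lies at 24.5 to 38.8 CPM in the 5 libraries of the highest ratio and at 42.3 to 66.0 CPM in the other 11, while Rspo3, Wnt7b and Fzd10 have their highest value in WT_alpha3 79.

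Fzd8, 1 of the 10 Frizzled receptors, had the lowest adjusted p of the 34 genes. It was at 30.3, 63.9, 63.4 and 27.1 CPM in WT_alpha3 45, 54, 55 and 79, and at 30.5, 66.0, 43.7 and 24.5 CPM in KO_alpha3 42, 50, 75 and 81. Values were 38.8, 44.9, 54.8 and 42.3 CPM in WT_beta 399, 401, 410 and 415 and 49.5, 44.8, 54.7 and 53.8 CPM in KO_beta 398, 402, 406 and 411. The 5 libraries of the highest ratio, at 24.5 to 38.8 CPM, did not overlap with the other 11, at 42.3 to 66.0 CPM. The rest of the 41 genes overlapped at this cut, and how many of all genes separate there was not counted. Nor was it counted for the other cut used here, between the alpha3-line libraries of high ratio and the rest. Wnt9a, Wnt3, Rspo2 and Rspo4 are described at that other cut. Fzd8 fell by 0.42 ± 0.04 on the log2 scale per unit of the ratio (edgeR adjusted p = 1.56e-05).

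The other receptors moved less or rested on fewer libraries. Fzd7 ran from 44.5 CPM in KO_alpha3 81 to 80.7 CPM in WT_beta 401, with a slope of -0.17 ± 0.05 (edgeR adjusted p = 0.00846). Fzd10, known from the dorsal spinal cord, rose by 0.49 ± 0.14 per unit (adjusted p = 0.00926): it was at 41.0 CPM in WT_alpha3 79 and between 5.68 and 15.6 CPM in the other 15 libraries. Without WT_alpha3 79 its slope was 0.23, and it no longer passed.

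The remaining 7 receptors did not pass. Fzd3, which guides axons and acts in planar polarity, had a slope of 0.07 ± 0.03 (edgeR adjusted p = 0.127). Fzd2, the receptor of highest level, had 0.04 ± 0.05, and Fzd1 had -0.04 ± 0.05. Fzd5 had 0.27 ± 0.15 (adjusted p = 0.142) and Fzd4 had -0.14 ± 0.08 (adjusted p = 0.147).

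None of the 4 Sfrp genes rose, and 2 fell. Sfrp5 was at 105, 185, 159 and 66.2 CPM in WT_alpha3 45, 54, 55 and 79, and at 111, 187, 161 and 112 CPM in KO_alpha3 42, 50, 75 and 81. It was at 114, 125, 136 and 108 CPM in WT_beta 399, 401, 410 and 415 and at 127, 138, 143 and 137 CPM in KO_beta 398, 402, 406 and 411. The 5 libraries of high ratio reached 114 CPM, and 1 of the other 11, WT_beta 415 at 108 CPM, lay within their range. The slope was -0.30 ± 0.05 (edgeR adjusted p = 0.000332).

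Sfrp1 had a slope of -0.15 ± 0.05 (edgeR adjusted p = 0.0318), with its lowest levels, 77.1 and 79.4 CPM, in KO_alpha3 42 and 81 and its highest, 151 CPM, in WT_alpha3 79, which also had a high ratio. Without WT_alpha3 79 the slope of Sfrp1 was -0.24. Sfrp4 had -0.15 ± 0.06 (adjusted p = 0.0531) and Sfrp2 had 0.29 ± 0.15 (adjusted p = 0.113), neither of which passed. Sfrp2 was highest in WT_beta 401, at 42.5 CPM, and WT_alpha3 45, at 31.2 CPM. In the annotation 16.1% of its exon bases are shared with a gene of the opposite strand, whose reads cannot be told apart without strand.

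Of the 3 Dickkopf genes tested, Dkk1, an inhibitor that binds Lrp5 and Lrp6, rose by 0.38 ± 0.15 per unit (edgeR adjusted p = 0.0448). It was at 2.58 CPM in WT_alpha3 45, 2.48 CPM in WT_alpha3 79 and 1.71 CPM in KO_alpha3 81, and lower in the other 13 libraries, with 0.425 CPM in WT_beta 399 and 0.612 CPM in KO_alpha3 42. The pass was lost in 11 of the 16 fits that left out 1 library. Dkk2 had a slope of 0.00 ± 0.08, and Dkk3 had -0.18 ± 0.09 (adjusted p = 0.0986).

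Among the R-spondins, Rspo2 and Rspo4 fell while Rspo3 rose. Rspo2 was at 4.40, 8.43, 11.2 and 2.38 CPM in WT_alpha3 45, 54, 55 and 79, and at 5.47, 9.52, 7.46 and 2.70 CPM in KO_alpha3 42, 50, 75 and 81. It was at 6.69, 6.57, 7.73 and 8.56 CPM in WT_beta 399, 401, 410 and 415 and at 6.13, 7.54, 10.1 and 10.9 CPM in KO_beta 398, 402, 406 and 411. The 4 alpha3-line libraries of high ratio lay below the other 12, and WT_beta 399 lay among these. Rspo2 fell by 0.57 ± 0.07 per unit (edgeR adjusted p = 6.08e-05).

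Rspo4 was at 1.02 to 1.67 CPM in the 4 alpha3-line libraries of high ratio, at 3.13 CPM in WT_beta 399 and at 2.61 to 4.63 CPM in the other 11. Its slope was -0.50 ± 0.10 (edgeR adjusted p = 0.00106). Rspo3 was at 4.48, 1.15, 1.26 and 8.02 CPM in WT_alpha3 45, 54, 55 and 79, and at 4.69, 1.23, 1.99 and 2.31 CPM in KO_alpha3 42, 50, 75 and 81. In the beta line it lay between 1.01 CPM in KO_beta 411 and 2.90 CPM in WT_beta 399, which was the highest of those 8. Its slope of 0.68 ± 0.15 (adjusted p = 0.00224) had the opposite sign to those of Rspo2 and Rspo4; 13.1% of its exon bases are shared with a gene of the other strand. Rspo1 had -0.17 ± 0.10 and did not pass (adjusted p = 0.175).

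**Figure D3:**
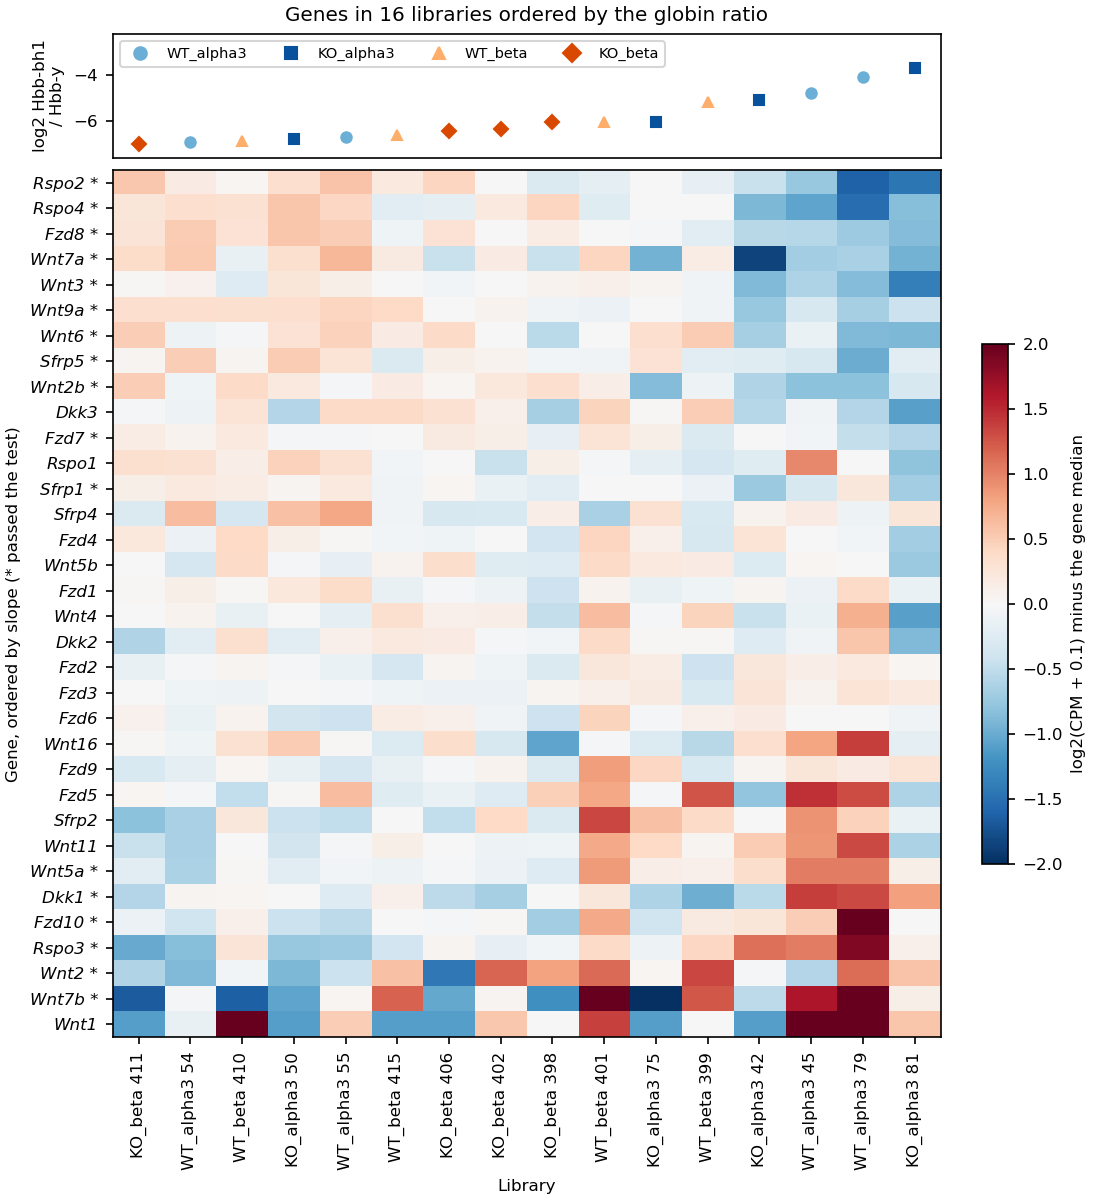
The upper panel gives log2 of the Hbb-bh1 to Hbb-y ratio of the 16 libraries, and the lower panel gives log2(CPM + 0.1) of the 34 tested genes minus the gene's median, red above it and blue below it, in the same order of libraries. The genes that fell are paler or blue on the right, and the red values of the genes that rose lie mostly in WT_alpha3 45, WT_alpha3 79 and WT_beta 401.

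Markers of other cell types moved with the ratio too. Of the 10 neural crest and progenitor markers, 8 rose and 0 fell, with summed levels of 797 to 1413 CPM in the 5 libraries of the highest ratio and 586 to 806 CPM in the other 11. Of 17 tested spinal cord markers, 10 rose and 0 fell; the median slope was 0.84, and the largest included Pax6 at 1.33 and Lmx1a at 1.58. The summed level of the 18 cord markers was 14.6 to 139 CPM in WT_alpha3, 9.30 to 32.8 CPM in KO_alpha3, 15.8 to 117 CPM in WT_beta and 10.1 to 30.7 CPM in KO_beta, and none of the 18 was at 0 in all libraries. The libraries of the highest mean log2 level of these markers were WT_alpha3 79 at 2.13, WT_beta 401 at 1.81 and WT_alpha3 45 at 1.41. Epidermis markers gave 3 higher and 2 lower of 12, fibroblast markers 2 and 1 of 12, glial markers 0 and 4 of 9, and sensory neuron markers 3 and 5 of 12. Roof plate markers gave 1 higher and 1 lower of 4, cartilage 1 higher of 5, endothelium and sympathetic neurons 1 lower of 6 each, and muscle, macrophage and liver markers 0 of 10, 5 and 4 in edgeR. Slopes were nonetheless above 0 for 5 of 6 sympathetic markers, with a median of 1.49, and for 4 of 4 liver markers, with a median of 0.79. None of these rises passed, and neither list was used as a covariate. In bulk RNA, fewer cells of a type and less RNA per cell cannot be told apart.

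The slopes were therefore refitted with the mean log2 level of the spinal cord markers as a second covariate, where 18.4% of 16023 genes passed. Of the 35 genes of the set then tested, 6 fell and 0 rose in edgeR, beside 8.81% of all genes that fell and 9.64% that rose. Fzd8 fell by 0.40 ± 0.07, Rspo2 by 0.50 ± 0.11, Wnt3 by 0.45 ± 0.11, Wnt9a by 0.27 ± 0.08, Sfrp5 by 0.25 ± 0.07 and Fzd7 by 0.22 ± 0.07 per unit of the ratio. The genes that had risen no longer passed. Among them Fzd10 at 0.28 ± 0.20, Wnt7b at 0.13 ± 0.19 and Wnt5a at 0.10 ± 0.13 had smaller slopes than in the first fit. Rspo3, at 0.58 ± 0.24, kept a slope near its first one of 0.68 ± 0.15 and missed with the larger error. Wnt7a, at -0.48 ± 0.18, and Rspo4, at -0.41 ± 0.14, had slopes near those of the first fit but did not pass with the larger error.

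A further fit left out WT_alpha3 45 and 79 and WT_beta 399 and 401, which earlier results of these data described as highest in markers of other tissues. Of these, 3 are among the 5 of the highest ratio. The others of those 5, KO_alpha3 42 and 81, stayed in, and both had Y-linked reads near 0. WT_beta 399 was highest in epidermis markers, with a mean log2 level of 2.73, but at 0.25 lay below WT_beta 415, at 0.74, in cord markers. In the 12 other libraries 11 of 32 genes fell and 0 rose, while 27.2% of all genes passed, with 14.3% falling and 12.9% rising. The 11 were Fzd7, Fzd8, Rspo1, Rspo2, Rspo4, Sfrp1, Sfrp5, Wnt3, Wnt4, Wnt6 and Wnt9a. The slopes without those libraries were -0.44 ± 0.06 for Fzd8, -0.59 ± 0.09 for Rspo2 and -0.51 ± 0.10 for Wnt3, and 0.62 ± 0.32 for Wnt7b, 0.38 ± 0.23 for Rspo3 and 0.12 ± 0.11 for Fzd10. With the spinal cord, fibroblast and epidermis markers together as covariates, 2 of 35 rose and 9 fell, beside 14.3% and 14.8% of all genes, 29.1% together. The 2 were Rspo3, at 0.68 ± 0.20, and Wnt5a, at 0.22 ± 0.07, which had not passed with the cord markers alone. With the mean of the progenitor markers in place of the ratio, 12 rose and 10 fell, beside 26.4% and 24.0%, or 50.4% together. With Y-linked reads as a covariate 8 of 35 rose and 8 fell, beside 21.3% and 18.8% of all genes, 40.1% together, and Dkk1, Sfrp1, Wnt6 and Wnt7a no longer passed. Only KO_alpha3 held libraries both with and without Y-linked reads, so this covariate bears on that group alone. Among the 8 wild types alone 8 rose and 7 fell, beside 14.8% and 17.8%, or 32.6% together. Without WT_alpha3 79 alone, 10 of the genes passed, of which 1 rose, and without KO_alpha3 50 alone 7 fell.

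**Figure D4:**
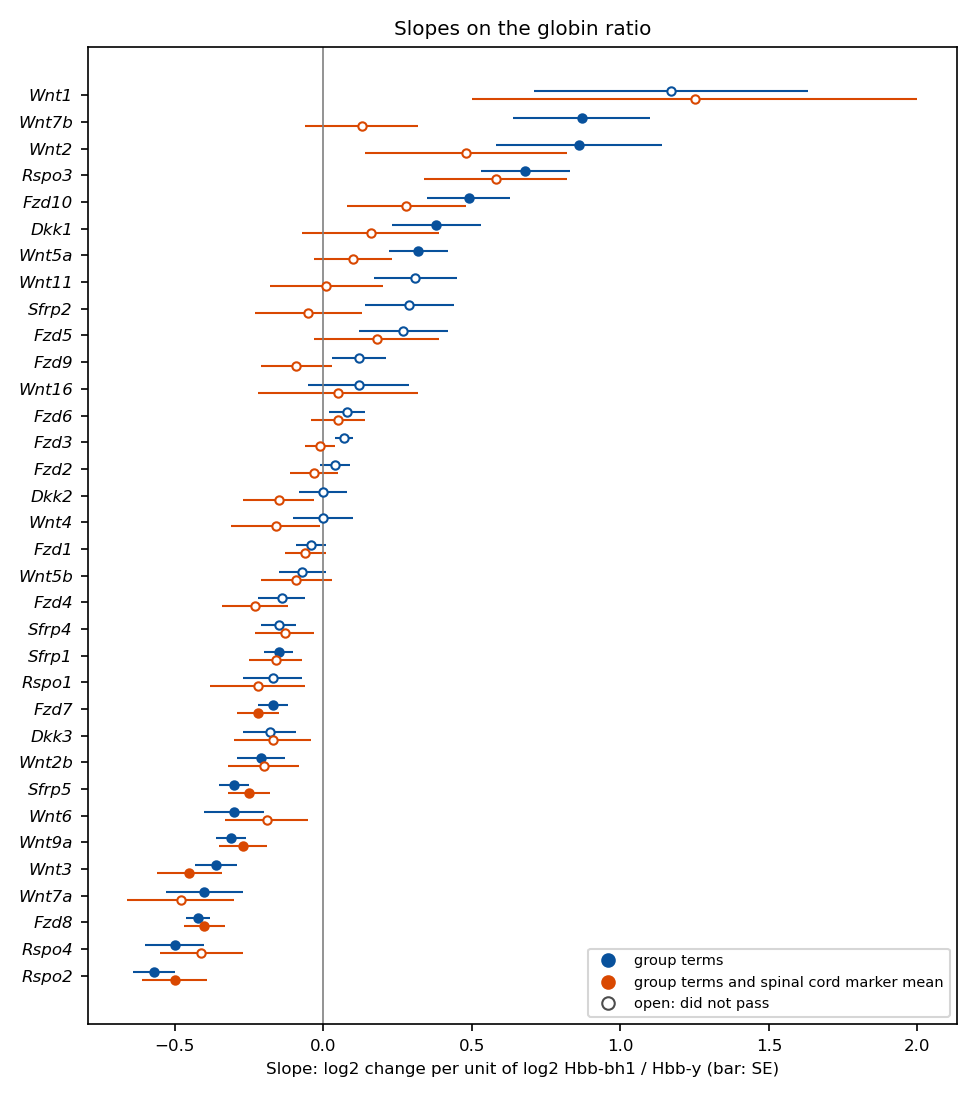
Slope of each of the 34 genes on log2 of the Hbb-bh1 to Hbb-y ratio, with the SE as a bar, fitted with group terms alone in blue and with the spinal cord marker mean added in orange; filled points passed edgeR's test. With the marker mean, 6 genes that fell stay filled, while no gene that rose does.

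Fewer genes passed in some fits that had both fewer libraries and a narrower range of the ratio, and the cause was not tested. Without the 5 libraries of the highest ratio 0 of 34 genes passed in edgeR, beside 1.85% of all genes; 12 of the 34 and 3266 of all 15707 had an unadjusted p under 0.05, and DESeq2 was not run there. In the 8 libraries of the alpha3 line alone 8 rose and 10 fell of 34, beside 21.3% and 21.4% of all genes, 42.7% together. In the 8 of the beta line alone, whose ratio ran from -7.00 to -5.17, Fzd5 was the single gene to pass, at 0.90 ± 0.21 (edgeR adjusted p = 0.0401), with 4.95% of all genes called. Slopes there were as large as over the 16 libraries for Wnt9a, at -0.31 ± 0.09, Wnt7b, at 1.02 ± 0.76, Fzd7, at -0.23 ± 0.10, and Sfrp1, at -0.16 ± 0.06. They were smaller for Fzd8, at -0.21 ± 0.08, and Rspo2, at -0.31 ± 0.15. Near 0 lay those of Sfrp5, at -0.07 ± 0.07, Rspo4, at -0.04 ± 0.18, Fzd10, at 0.03 ± 0.21, and Wnt7a, at -0.07 ± 0.23. Tested directly in edgeR, the slopes of the lines differed for 0 of 35 genes, 6 of which had an unadjusted p under 0.05, and for 1.17% of all genes; Wnt3 came nearest, with a difference of 0.52 ± 0.14 (edgeR adjusted p = 0.0895).

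The other genes of the pathway were read from lists of receptors, modulators, cytoplasmic and nuclear components, targets and polarity genes. Of 12 coreceptors and other receptors, 4 rose and 4 fell. Lgr6, an R-spondin receptor, had the largest slope of the lists, -1.37 ± 0.12 (edgeR adjusted p = 1.03e-05), with 1.29 to 11.0 CPM in the 5 libraries of the highest ratio and 13.4 to 30.9 CPM in the other 11. Lgr4 and Lgr5, its relatives, fell by 0.24 ± 0.03 and 0.16 ± 0.06, and Ror2, a receptor of Wnt5a, by 0.19 ± 0.03. The rises of Ryk, Lrp5, Tspan12 and Adgra2 were between 0.10 and 0.14.

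Of 19 modulators, 2 rose and 6 fell. Sostdc1, an inhibitor of Wnt and BMP signals, had a slope of -1.03 ± 0.14 (edgeR adjusted p = 6.82e-05), with 3.98 to 40.4 CPM in the 5 libraries of high ratio and 33.1 to 79.9 CPM in the other 11. Dkkl1, a relative of the Dickkopf genes, fell by 0.43 ± 0.10, Trabd2b, a protease that inactivates Wnts, by 0.36 ± 0.10, and Apcdd1, a membrane inhibitor, by 0.29 ± 0.11. Shisa2, which holds Frizzled inside the cell, rose by 0.67 ± 0.16 and Frzb by 0.36 ± 0.09. Porcn, which attaches the lipid to Wnts, and Wls, which carries them to the surface, did not pass, at -0.06 ± 0.04 and -0.05 ± 0.05.

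Of 25 cytoplasmic and nuclear components, 7 rose and 10 fell. Tle2, a corepressor of the Tcf factors, fell by 0.37 ± 0.06, while its relative Tle3 rose by 0.22 ± 0.04. Of 9 usual targets of β-catenin tested, 2 rose and 1 fell. Ccnd1, which encodes the cell cycle protein cyclin D1, rose by 0.65 ± 0.16 (edgeR adjusted p = 0.00499), and Nkd2, a feedback inhibitor, by 0.24 ± 0.07. Axin2, a target named here after its value was seen, had a slope of 0.07 ± 0.08 (adjusted p = 0.534). Of 13 planar polarity genes, 3 rose and 2 fell, with Daam1, a regulator of actin, at 0.22 ± 0.03. The shares that passed in these lists are to be read against the 47.3% of all genes.

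The promoters were searched for the letters bound by Tcf and Lef factors, CTTTGAT and CTTTGTT, on both strands in the 250 bases before and 50 after each start in RefSeq (GRCm38.p6). Promoters of 27 of the 41 genes were matched, and 5 genes, or 18.5%, held a match, against 10.6% of the 27025 genes of the table. A match describes the letters alone. Dkk1, Fzd7 and Wnt3 are among the genes with a slope on the ratio, whereas Wnt11 and Wnt5b are not. The windows are printed on the strand of the gene with the match in capitals, and they lie at chr19:30549579-30549603, chr1:59482008-59482032, chr11:103774184-103774208, chr7:98835052-98835076 and chr6:119449442-119449466.
Dkk1: ccatcccggCTTTGTTgtcttccct
Fzd7: cacagagaaAACAAAGcgcgctatt
Wnt3: tcaagtggaCTTTGTTccaactatt
Wnt11: cgtgggcggATCAAAGcgacggtcc
Wnt5b: taagtctctCTTTGATctgctccct
In Fzd7 and Wnt11 the match is on the opposite strand, so its reverse complement is seen. The Wnt3 match starts 18 bases after the start of the transcript, and the others start between 51 and 130 bases before it.

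The second set of comparisons asked what the knockouts changed, each against the same 8 wild types. In KO_alpha3, 0 of the 34 genes passed in edgeR, beside 0.00639% of all genes (1 of 15641), while 7 of the 34 and 1696 of all genes had an unadjusted p under 0.05; DESeq2 called 1 of the set, Wnt7b, and 133 genes in all. The log2 fold change was below 0 for 29 of the 34 genes, with a median of -0.27 against -0.01 over all genes, of which 7594 of 15641 lay above 0. In KO_beta, 0 of 34 passed in edgeR, beside 0% of all genes, while 2 of the 34 and 349 of all genes had an unadjusted p under 0.05; DESeq2 called 0 of the set and 1 gene in all. The fold change was below 0 for 25 of 34, with a median of -0.19, while 7692 of all 15641 genes lay above 0. Because the wild types are shared, a wild type with a high level lowers both fold changes at once. Without WT_alpha3 45 and 79 and WT_beta 399 and 401, the median of the set was -0.18 in KO_alpha3, with 10 of 32 genes above 0. In KO_beta it was then -0.05, with 8 of 32 above 0. Against the wild types of its own line alone, the median was -0.19 in KO_alpha3 (8 of 32 above 0) and -0.14 in KO_beta (10 of 32). In these fits 0 genes of the set passed in edgeR.

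Wnt7b had the lowest unadjusted p of the set in both knockouts. Its log2 fold change was -2.33 ± 0.75 in KO_alpha3 (edgeR adjusted p = 0.347) and -2.46 ± 0.76 in KO_beta (adjusted p = 0.932). DESeq2 gave -2.31 ± 0.65 in KO_alpha3 (adjusted p = 0.0488). In the values listed above, the knockouts lay at or below 2.53 CPM and the 8 wild types between 0.678 and 19.8 CPM, with overlap. The spinal cord markers had a median log2 fold change of -2.19 in KO_alpha3, with 1 of 17 above 0, and of -1.51 in KO_beta, with 0 of 17 above 0. The median was -1.70 for epidermis markers in KO_alpha3 (0 of 12 above 0) and -0.26 in KO_beta (3 of 12), and for skeletal muscle -1.61 and -0.68 (0 of 10 in both). It was -3.04 and -2.65 for sympathetic markers (0 and 1 of 6) and -3.30 and -1.69 for liver markers (0 of 4 in both). Other lists differed. In the same order of knockouts, glial markers had 0.23 and 0.14, sensory neuron markers 0.04 and 0.14, and endothelium 0.01 and 0.00. Neural crest and progenitor markers had 0.17 and -0.76, and cartilage 0.49 and -0.49. Fibroblast markers had -0.24 and -0.10, macrophage -0.47 and -0.22, roof plate -0.92 and -1.05, and erythroid -0.75 and -0.98. The part of these cell types and tissues in the values of Wnt7b and of the set was not tested.

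Fzd5, with 17.8% of its exon bases shared with a gene of the other strand, was at 1.92, 3.44, 3.35 and 2.19 CPM in KO_alpha3 42, 50, 75 and 81 and between 2.39 and 9.52 CPM in the 8 wild types. Its log2 fold change was -1.08 ± 0.37 (edgeR adjusted p = 0.358). Dkk3, a divergent member of the Dickkopf family, was at 9.42, 9.34, 14.4 and 6.60 CPM in KO_alpha3 42, 50, 75 and 81 and between 9.33 and 19.9 CPM in the wild types. Its fold change was -0.70 ± 0.24 (adjusted p = 0.358). Wnt1 had a read in 1 of the 4 KO_alpha3 libraries, at 0.214 CPM, and in 2 of the 4 KO_beta libraries, at 0.112 and 0.211 CPM, against 0 to 3.03 CPM in the 8 wild types. Its unadjusted p was 0.0151 in KO_alpha3 and 0.0246 in KO_beta (edgeR adjusted p = 0.379 and 0.932), and no fold is given for so few reads. None of these values passed.

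**Figure D5:**
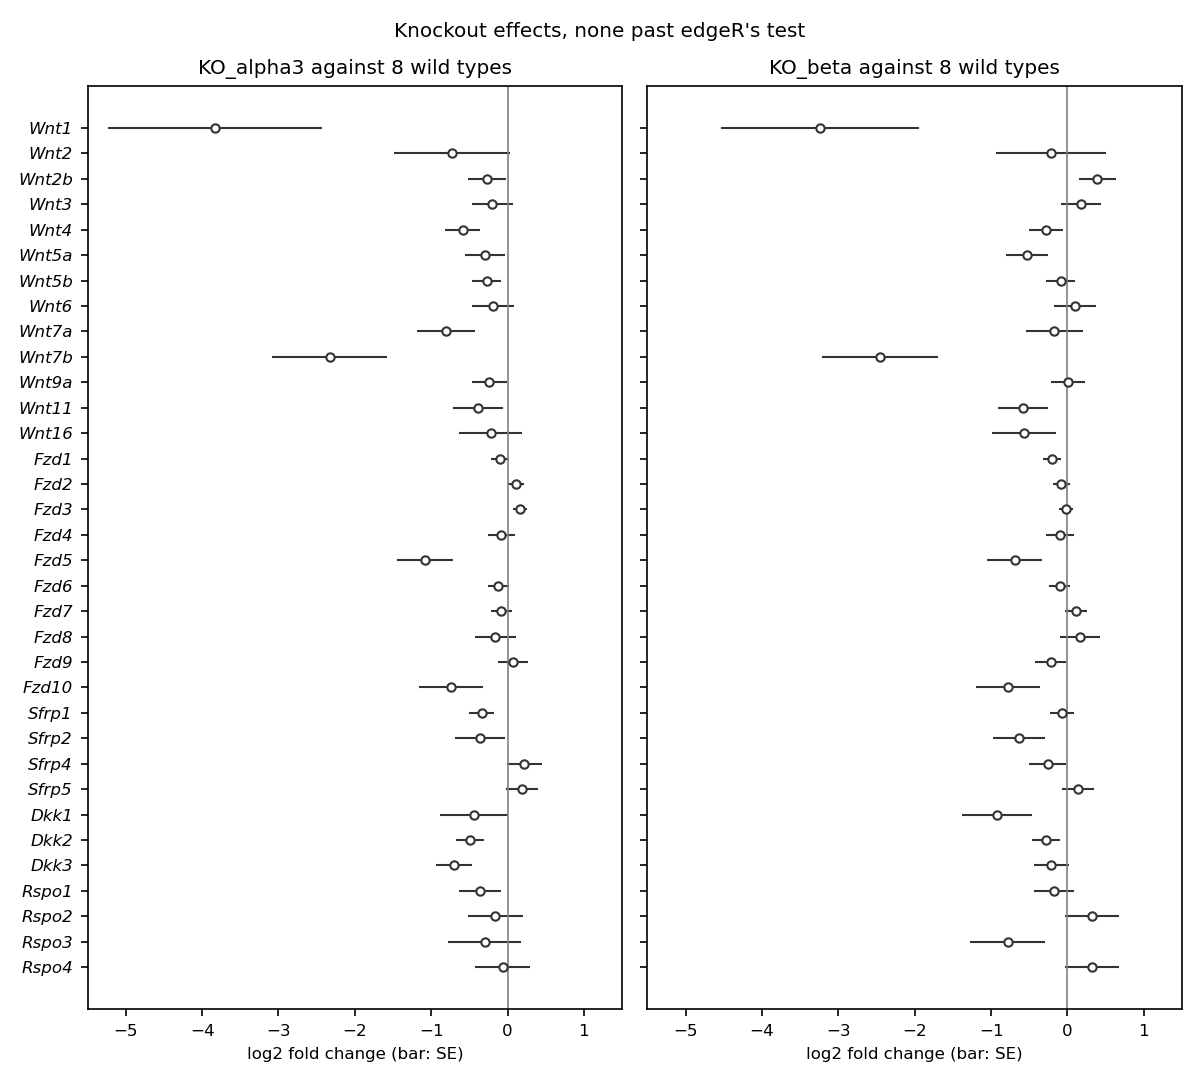
Log2 fold change of each tested gene against the 8 wild types, with the SE as a bar, in KO_alpha3 on the left and KO_beta on the right; open points did not pass edgeR's test. Most points lie below 0, 29 of 34 in KO_alpha3 and 25 of 34 in KO_beta, and both panels share their wild types.

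Between WT_beta and WT_alpha3, 0 of the 34 genes passed in edgeR, beside 0.0192% of all genes. Of the 34, 2 had an unadjusted p under 0.05, as had 824 of all 15641. DESeq2 called 0 of the set and 30 of 20499 genes in all. All WT_alpha3 libraries and no WT_beta library had Y-linked reads, so line and sex cannot be told apart here. Sfrp4 came nearest, at 8.55, 11.8, 13.1 and 7.14 CPM in WT_alpha3 45, 54, 55 and 79 against 6.15, 4.87, 6.06 and 7.28 CPM in WT_beta 399, 401, 410 and 415. The groups overlapped at WT_alpha3 79, and the log2 fold change was -0.76 ± 0.20 (edgeR adjusted p = 0.631). The difference between the knockout effects passed for 0 of the 34 in edgeR, beside 0.00639% of all genes. An unadjusted p under 0.05 was found for 0 of the 34 and 191 of all 15641. DESeq2 called 0 of the set and 6 of 20499 genes in all. In the pathway lists 0 genes were called by edgeR in either knockout.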

How the data were processed

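The submitters deposited a table of read counts per gene symbol for the 16 libraries. Of tools, HTSeq 0.6.1p1 and TopHat2 2.0.10 appear in the submitters' processing notes beside DESeq2 1.6.3, bcl2fastq 2.17.1.14, cutadapt and the build mm10, with no roles. Gene annotation and strand are not given in the sources. A second, normalized table was not used. Of the counted rows, 219 lie out of alphabetical order, among them Wnt7b and Kpna4; values were taken with the symbol of their row.

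Counts were scaled by edgeR's TMM factors and tested with edgeR 4.0.16 (R 4.3.3; quasi-likelihood, filterByExpr with a minimum count of 10 and a total of 15, Benjamini-Hochberg threshold 0.05 over all genes tested). The slope fit had group terms and the globin ratio, without the 2 globin genes. DESeq2 1.42.0, other scalings, covariates and left-out libraries were alternatives. The code was tested on simulated data. CPM uses TMM-scaled totals, and exon lengths come from GENCODE M21. Counts of pairs of libraries differed by more than sampling noise (chi-square per degree of freedom at least 6.22).

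The members and lists were chosen with earlier results of these data known. Genes named are those past a threshold, or the 3 of lowest p in each family; of the pathway lists, the 6 largest slopes in each direction. Lgr4, Lgr5, Ror2, Ryk, Lrp5, Tspan12, Adgra2 and Axin2, and Fzd5, Dkk3 and Wnt1 in the knockouts, were named after their values were seen.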

Additional observations from a re-analysis of the deposited data

Results flagged for a closer look

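Within the groups of 4, 8 of 136 combinations of gene and group (5.88%) held a library far from the other 3 for the spread of the group; chance marks about 1 in 20. WT_beta 401 was high for 3 genes. Wnt5a was at 23.8 CPM there and at 12.2 to 14.1 CPM in the other WT_beta libraries, Wnt11 at 7.29 against 4.22 to 4.61 CPM, and Fzd6, a receptor of planar polarity, at 12.8 against 9.92 to 10.4 CPM. KO_beta 398 was low for Fzd7, at 59.2 against 72.5 to 75.2 CPM, and high for Sfrp4, at 8.41 against 6.11 to 6.22 CPM. Sfrp1 was at 103 CPM in WT_alpha3 45 and at 147 to 151 CPM in the other WT_alpha3 libraries. Wnt2 was at 0.486 CPM in WT_alpha3 79 against 0.0461 to 0.101 CPM, and Wnt1 at 0.214 CPM in KO_alpha3 81, where the other KO_alpha3 libraries had no read. The last pair rests on a handful of reads.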

How the results depend on the processing

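Of the 17 genes with a slope on the globin ratio, Fzd8, Rspo2, Sfrp5 and Wnt9a passed in 17 of the 19 fits that did not leave out a single library, and missed in the beta line alone and without the 5 libraries of the highest ratio. Against 7472 genes in all and 17 of the set, the beta line alone gave 783 and 1 (1 higher, 0 lower), the fit without those 5 libraries 291 and 0 (0 higher, 0 lower), the spinal cord covariate 2956 and 6 (0 higher, 6 lower), and the fit without WT_alpha3 45 and 79 and WT_beta 399 and 401 gave 4259 and 11 (0 higher). An adult globin ratio gave 4758 and 10 (1 higher), and the 8 wild types alone gave 8 higher and 7 lower. Chosen after seeing the data were the fit without the 5 libraries, the line-by-ratio interaction, cord, fibroblast and epidermis markers together, with 4657 and 11 (2 higher), and the progenitor marker mean in place of the ratio, with 12 higher. Slopes changed sign in the beta line for Wnt3 (0.07), Wnt6 (0.02) and Dkk1 (-0.33), and without the 5 libraries for Wnt3 (0.08); the cause was not tested. Leaving out 1 library gave 5899 to 7796 genes, 10 to 21 of the set, 1 to 8 higher and 7 to 13 lower; the lowest counts came without WT_alpha3 79, or, for lower genes, without KO_alpha3 50. In KO_alpha3, 1 gene in all became 133 with DESeq2 (1 of the set) and 1 to 124 without a library, 124 without KO_alpha3 50. In KO_beta, 0 became 1 with DESeq2 and 7 against WT_beta alone, and stayed at 0 without any 1 library. Between the wild types, 3 became 30 with DESeq2, 5 with the ratio as a covariate and 2 to 7 without a library, with 7 without KO_alpha3 81 and 5 without KO_alpha3 50. For the difference of the knockout effects, 1 became 2 without the filter, 6 with DESeq2 and 1 to 3 without a library, with 3 without KO_alpha3 50 and 2 without KO_alpha3 75. No paired analysis was possible because the groups share no replicate number. Depth limits the 7 untested genes and Wnt1 and Wnt2, which had few reads.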
